A study of Mus musculus with 8 samples.

Results

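Lipid droplets are the cell's fat stores, and the genes described here encode the proteins that coat them, enlarge them and release fat from them. The 10 genes were taken by symbol: 4 perilipins (Plin2, Plin3, Plin4 and Plin5), 3 CIDE proteins (Cidea, Cideb and Cidec), the droplet budding protein Fitm2, the triglyceride lipase Pnpla2 and its inhibitor G0s2. All 10 had a line among the 24674 lines with a gene symbol, and 9 passed a filter on low values, with 14390 genes in all. The 10th, Cidea, had 0 reads in each library. Liver RNA had been sequenced from 8 female mice. The 4 F2_outcross animals were wild type themselves but had a maternal grandmother without Khdc3, which acts in oocytes and early embryos. The 4 WT animals are labelled wild type, and their label names no ancestor without Khdc3. The comparison asks whether descent from such a grandmother goes with a different liver transcriptome in a wild-type female. Age, strain, litter, feeding state and batch are not in the sources used here, which do not say either whether littermates were sampled. P-values therefore measure the spread between these samples.

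A lipid droplet is a core of neutral fat under a single layer of phospholipid, and its coat decides how easily lipases reach the fat. Perilipins form that coat. In liver the coat holds Plin2, Plin3 and, as in other cells that burn fatty acids, Plin5, while Plin1 and Plin4 are best known from adipocytes. CIDE proteins sit where droplets touch and let fat pass from the smaller to the larger droplet, and in hepatocytes Cideb also takes part in loading lipid onto very low density lipoprotein. Pnpla2, also called ATGL, makes the first cut in a triglyceride, and G0s2 binds and inhibits it.

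In F2_outcross livers Plin4 rose 3.33-fold, and it was the 1 gene of the 9 tested that passed the test over all genes. In the limma fit with Benjamini-Hochberg adjustment, 2.66% of all tested genes passed an adjusted p of 0.05, and 1.60% passed it as higher in F2_outcross. G0s2, Cidec, Plin5 and Fitm2 had higher means in F2_outcross and missed the adjusted threshold. Plin2, Plin3, Cideb and Pnpla2 did not pass even before adjustment. In all, 5 of the 9 had an unadjusted p under 0.05 in limma, against 21.1% of all tested genes in either direction, and each of the 5 had the higher mean in F2_outcross. The log2 fold change was positive for 7 and negative for 2 of the 9, with a median of 0.56, against -0.01 for all tested genes. In 2 of them, Plin4 and Cidec, each F2_outcross value lay above each WT value, which held for 6.50% of all tested genes. The members were chosen with earlier results of these data known, so these shares describe the set only.

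**Figure D1:**
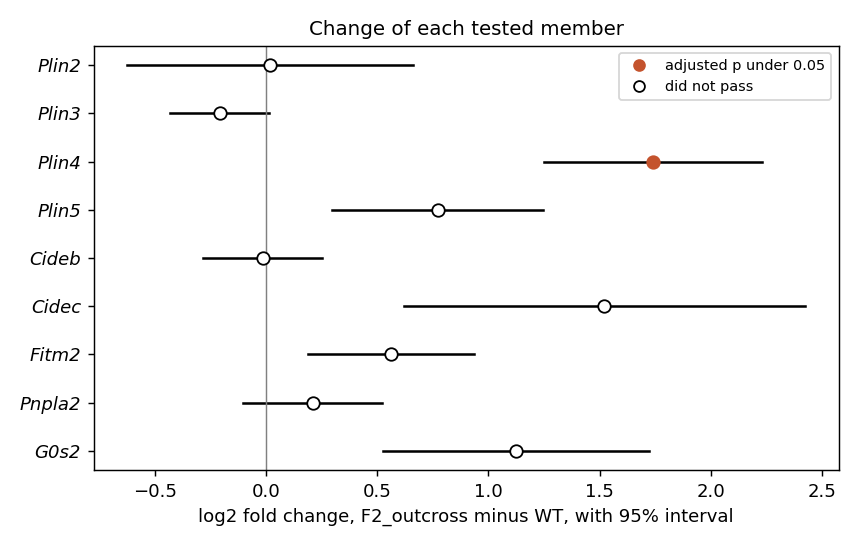
Log2 fold change (F2_outcross minus WT) of the 9 tested genes from limma, with 95% intervals as lines (n = 4 libraries per group). The filled point is the gene that passed an adjusted p of 0.05. The interval of Plin4 runs from 1.25 to 2.23, and those of Plin2, Plin3, Cideb and Pnpla2 include 0.

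Libraries held 28028650 to 35843972 reads, and 1 read was worth 0.779 to 1.04 normalized reads, the unit of all levels below unless a length is named. The labels give the cell type as hepatocyte. Hepatocyte markers were abundant, with a summed level of 3021454 to 3794193 in F2_outcross and 2915257 to 4211340 in WT. Kupffer cell markers were present too, at a summed 11832 to 16805 in F2_outcross and 14547 to 30838 in WT, as were stellate cell markers, at 11599 to 13503 in F2_outcross and 12260 to 15134 in WT. None of the 6 Kupffer markers passed the test, but all 6 had negative log2 fold changes (median -0.63), led by Csf1r (-0.64, adjusted p = 0.0567 in limma) and Cd5l (-0.86, adjusted p = 0.0639 in limma). Of 7 stellate markers, 6 had negative log2 fold changes and none passed. Reln stood at -0.21 on the log2 scale (adjusted p = 0.474 in limma). Of 5 hepatocyte markers none passed either, with Cps1 at 0.56 and Apoa1 at -0.52 on the log2 scale. In bulk tissue, fewer cells of a type and less RNA per cell cannot be told apart, and the part of these cells in the results below was not tested.

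F2_outcross replicate 3 stood apart in adipocyte RNA. Of 8 adipocyte markers 6 did not pass the filter (Adipoq, Lep, Plin1, Retn, Cfd and Ucp1), and their summed level was 29.0, 2.88, 197.7 and 0.975 in F2_outcross replicates 1 to 4, against 1.56, 9.09, 6.26 and 0.780 in WT replicates 1 to 4. Fabp4 and Adrb3, the 2 that passed the filter, had log2 fold changes of 0.51 (adjusted p = 0.198) and -0.52 (adjusted p = 0.552 in limma). Skeletal and heart muscle markers were near the floor, with 3 of 6 at 0 in every library and a summed level of at most 1.95 in F2_outcross and 2.34 in WT. Plin4 and Plin5 are both expressed in muscle.

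Plin4 lies on chromosome 17 from 56100591 to 56109803 on the minus strand (GRCm38, GENCODE M21), next to Plin5 at 56111601 to 56117596 on the same strand. Only 1.80 kb separate the pair, and Plin3 follows at 56277476 to 56292873. The start regions of Plin4 and Plin5 are shown because the 2 genes are neighbours with unequal changes, and that of Plin2 because it encodes the main liver coat protein and is the member set against both below. Each runs from 250 bases before to 50 after the RefSeq start in GRCm38.p6, and reads from 5′ to 3′ on the gene's strand. Capitals mark TATAA where it begins 60 to 6 bases before the start, CACGTG, and 2 copies of AGGTCA on either strand with 1 base between them and at most 2 mismatches in 12 letters, the spaced repeat to which PPAR receptors bind.
Plin4, chr17:56109733-56110032, minus strand: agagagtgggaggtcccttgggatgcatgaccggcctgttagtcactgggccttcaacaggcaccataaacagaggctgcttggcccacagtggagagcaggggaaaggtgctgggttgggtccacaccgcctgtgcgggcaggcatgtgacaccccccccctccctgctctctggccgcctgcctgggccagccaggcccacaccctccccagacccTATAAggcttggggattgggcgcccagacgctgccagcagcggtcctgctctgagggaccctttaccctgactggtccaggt
Plin5, chr17:56117499-56117798, minus strand: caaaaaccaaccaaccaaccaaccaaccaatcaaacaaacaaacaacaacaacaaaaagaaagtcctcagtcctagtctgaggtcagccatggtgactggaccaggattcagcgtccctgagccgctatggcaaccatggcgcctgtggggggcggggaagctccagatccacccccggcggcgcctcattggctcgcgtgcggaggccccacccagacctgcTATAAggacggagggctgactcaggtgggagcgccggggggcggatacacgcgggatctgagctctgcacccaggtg
Plin2, chr4:86670010-86670309, minus strand: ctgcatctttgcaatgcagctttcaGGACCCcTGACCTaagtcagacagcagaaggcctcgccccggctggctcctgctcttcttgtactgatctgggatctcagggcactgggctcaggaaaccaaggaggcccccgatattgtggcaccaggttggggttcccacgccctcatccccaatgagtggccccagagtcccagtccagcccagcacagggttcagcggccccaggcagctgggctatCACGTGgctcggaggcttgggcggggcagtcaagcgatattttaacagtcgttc

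TATAA began 32 bases before the Plin4 start and 27 bases before the Plin5 start, and a further Plin5 window, at a start downstream, did not hold it. It was present in 2 of the 11 windows of 9 members and in 5.54% of 32851 windows of all genes. The Plin2 window held CACGTG 4 bases before the start, as did 7.15% of all windows, and a spaced AGGTCA repeat with 2 mismatches on the minus strand of the window, 225 bases before the start, as did 3.86% of all windows. None of the other 10 member windows held CACGTG or the spaced repeat. These letters are a description of the windows and say nothing of which factors bind there.

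Plin4, a coat protein with long repeats that binds droplets directly, had 155, 143, 230 and 235 normalized reads in F2_outcross replicates 1 to 4, against 70.9, 62.6, 39.7 and 52.3 in WT replicates 1 to 4. The lowest F2_outcross library held about double the highest WT library. These levels rest on 177, 149, 265 and 241 whole reads in F2_outcross and 91, 62, 38 and 67 in WT. The means were 191 ± 48.4 in F2_outcross and 56.4 ± 13.5 in WT (SD, n = 4 each). The log2 fold change was 1.74 ± 0.23 (SE), with a 95% interval of 2.37- to 4.68-fold and an adjusted p of 0.00286 in limma. By p-value it ranked 25th, and by size of increase 22nd, of all tested genes.

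Plin4 stayed past the threshold in 16 of 16 other settings, 8 of which each left out a library, with adjusted p from 0.0015 to 0.0126 in limma. The 6 adipocyte markers that did not pass the filter summed to 2.88 and 0.975 in F2_outcross replicates 2 and 4, where Plin4 stood at 143 and 235. Leaving out F2_outcross replicate 3, which had the most adipocyte RNA, gave 3.11-fold (log2 1.64 ± 0.24, adjusted p = 0.0079 in limma). That fit keeps F2_outcross replicate 1, whose marker sum of 29.0 was also above the highest WT sum of 9.09. The part of adipocyte RNA in the Plin4 difference was not tested.

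**Figure D2:**
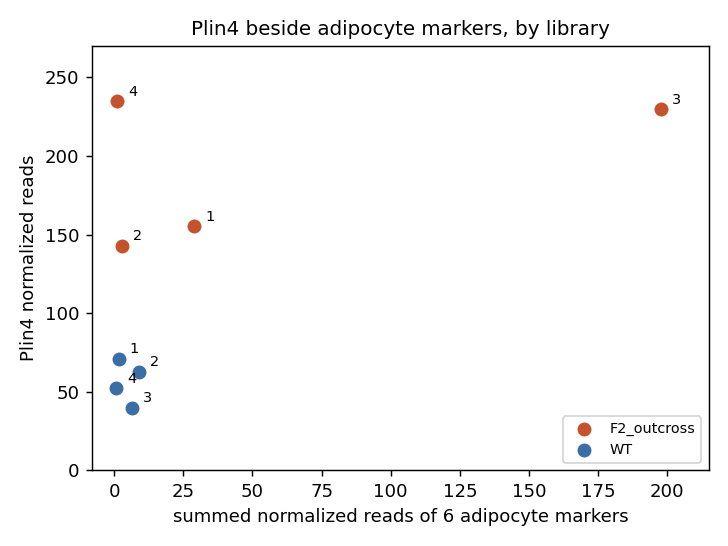
Plin4 (vertical axis) against the sum of the 6 adipocyte markers that did not pass the filter (horizontal axis), both in normalized reads, 1 point per library with its replicate number. F2_outcross replicate 3 lies far to the right at 197.7, while F2_outcross replicates 2 and 4, at 2.88 and 0.975, lie above every WT library in Plin4.

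Plin5, which links droplets to mitochondria, had 1791, 2831, 1635 and 2795 normalized reads in F2_outcross, against 1751, 1491, 1061 and 981 in WT. F2_outcross replicates 2 and 4 lay well above WT, while F2_outcross replicate 3 lay under WT replicate 1, so the groups overlapped. The means were 2263 ± 638 in F2_outcross and 1321 ± 364 in WT (SD, n = 4 each). The log2 fold change of 0.77 ± 0.22 corresponds to 1.71-fold, with an interval of 1.23 to 2.37, and did not pass (adjusted p = 0.0805 in limma, 0.0523 to 0.179 over 16 other settings).

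Plin2, the most abundant perilipin of these livers, had 5439, 7006, 4415 and 14075 normalized reads in F2_outcross, against 6859, 9556, 6090 and 5625 in WT. Replicate 4 of F2_outcross was the highest of the 8 libraries and F2_outcross replicate 3 the lowest, so the WT range fell within that of F2_outcross. The coefficient of variation was 56.4% in F2_outcross and 25.0% in WT. The fold change was 1.01 with an interval of 0.650 to 1.58 (log2 0.02 ± 0.29, adjusted p = 0.978 in limma), and its sign changed in 4 of 16 other settings. Without F2_outcross replicate 4 the log2 fold change was -0.32 (adjusted p = 0.404 in limma).

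Plin3, a coat protein that moves between cytosol and new droplets, had 1005, 1167, 981 and 1117 normalized reads in F2_outcross, against 1157, 1396, 1205 and 1176 in WT. It varied least among the 9 tested members in both groups, with a coefficient of variation of 8.34% in F2_outcross and 8.94% in WT. The means were 1067 ± 89.0 in F2_outcross and 1234 ± 110 in WT, the groups overlapped, and the log2 fold change was -0.21 ± 0.10, with an interval of -0.43 to 0.02 (adjusted p = 0.271 in limma).

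Measured against Plin2 in the same library, the perilipins can be compared free of library scaling. The ratio of Plin4 to Plin2 was 0.0286, 0.0204, 0.0520 and 0.0167 in F2_outcross, against 0.0103, 0.00656, 0.00651 and 0.00929 in WT. All 4 F2_outcross ratios lay above the 4 WT ratios, a 3.33-fold difference of geometric means (exact permutation p = 0.0286, two-sided, the smallest that 70 assignments allow, and 0.0571 after adjustment over the 4 ratios tested). The ratio of Plin5 to Plin2 was 0.329, 0.404, 0.370 and 0.199 in F2_outcross, against 0.255, 0.156, 0.174 and 0.174 in WT. It overlapped through F2_outcross replicate 4 and WT replicate 1 (1.69-fold, exact permutation p = 0.0571, adjusted 0.0762). Neither ratio passed 0.05 after adjustment.

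Per kilobase of exon, Plin4 remained a minor perilipin transcript in both groups. It made up 1.02 ± 0.475% of the summed perilipin level per kilobase in F2_outcross and 0.331 ± 0.0645% in WT (SD, n = 4 each). Plin5 made up 31.4 ± 5.63% in F2_outcross and 21.3 ± 3.82% in WT. The main component was Plin2, with 58.9 ± 7.89% in F2_outcross and 67.2 ± 3.49% in WT, and Plin3 took 8.62 ± 2.54% in F2_outcross and 11.2 ± 1.72% in WT. These shares were not tested.

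**Figure D3:**
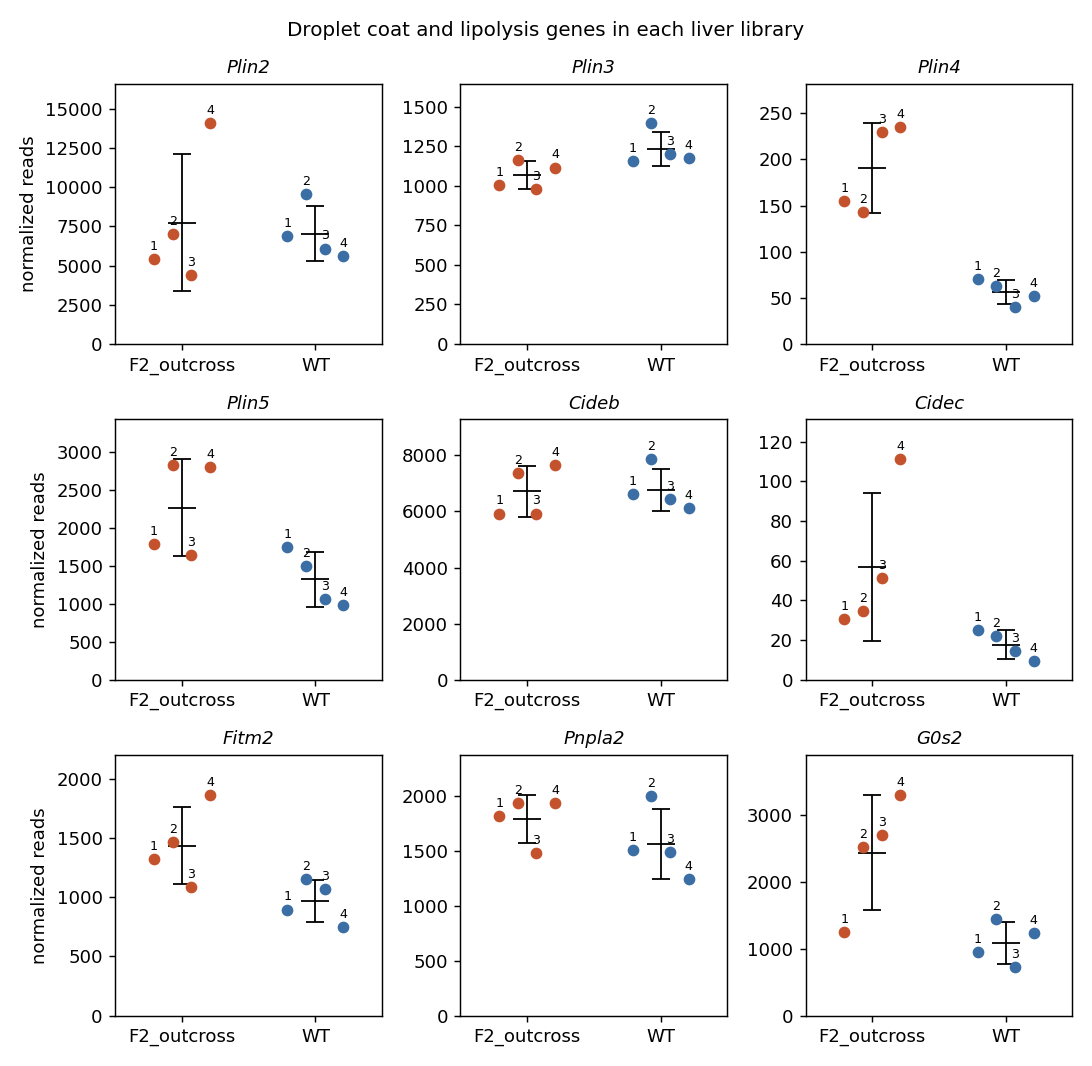
Normalized reads (vertical axes, from 0) of the 9 tested genes, 1 panel per gene and 1 point per library with its replicate number; bars give the mean and SD of each group (n = 4). In the Plin4 and Cidec panels the F2_outcross points all lie above the WT points, and in the Plin2 panel F2_outcross replicate 4 lies apart at 14075.

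Among the CIDE genes, Cidec, which drives the growth of large droplets and is low in lean liver, had 30.7, 34.5, 51.2 and 111 normalized reads in F2_outcross, against 24.9, 22.2, 14.6 and 9.36 in WT. The groups did not overlap, but F2_outcross replicate 4 held about double the next library and WT replicate 1 came close to F2_outcross replicate 1. These levels rest on 35 to 114 whole reads in F2_outcross and 12 to 32 in WT. The means were 56.9 ± 37.2 in F2_outcross and 17.8 ± 7.11 in WT (SD, n = 4 each). The log2 fold change of 1.52 ± 0.41, or 2.87-fold with an interval of 1.54 to 5.35, did not pass (adjusted p = 0.0720 in limma, 0.0522 to 0.156 over 15 other settings). Without F2_outcross replicate 4 it was 1.14 (adjusted p = 0.132 in limma).

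Cideb, the CIDE gene of hepatocytes, had 5927, 7374, 5927 and 7640 normalized reads in F2_outcross, against 6634, 7863, 6445 and 6138 in WT. The groups overlapped almost fully, with means of 6717 ± 919 in F2_outcross and 6770 ± 757 in WT, and the 95% interval of the log2 fold change was -0.28 to 0.25 (adjusted p = 0.958 in limma). Of its exonic bases 1136 are shared with Nop9 on the opposite strand. The library kit keeps strand, but the strand setting of the counting is not given in the sources used here. Cidea, the CIDE gene of brown fat, had 0 reads in all 8 libraries, which allows up to 3 reads per library, so it was not detectable at this depth.

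Within a library, the ratio of Cidec to Cideb was 0.00518, 0.00468, 0.00863 and 0.0145 in F2_outcross, against 0.00376, 0.00283, 0.00227 and 0.00153 in WT. The 2 sets of ratios did not overlap and differed 3.02-fold (exact permutation p = 0.0286, adjusted 0.0571 over the 4 ratios).

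Fitm2, an endoplasmic reticulum protein needed for droplets to bud, had 1321, 1471, 1088 and 1865 normalized reads in F2_outcross, against 897, 1152, 1069 and 750 in WT. F2_outcross replicate 3 lay under WT replicate 2, so the groups overlapped. The means were 1436 ± 326 in F2_outcross and 967 ± 180 in WT (SD, n = 4 each), a log2 fold change of 0.56 ± 0.17, or 1.48-fold, that did not pass (adjusted p = 0.0946 in limma). It passed without WT replicate 2 (log2 0.65, adjusted p = 0.0478 in limma). An antisense transcript, 2310001K24Rik, shares 227 of its exonic bases.

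Pnpla2, the lipase, had 1814, 1935, 1476 and 1934 normalized reads in F2_outcross, against 1504, 2002, 1491 and 1245 in WT. The groups overlapped, with a mean of 1790 ± 217 in F2_outcross and 1561 ± 317 in WT. Its log2 fold change was 0.21 ± 0.14, with an interval of -0.10 to 0.52 (adjusted p = 0.436 in limma).

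Its inhibitor G0s2 had 1251, 2526, 2698 and 3297 normalized reads in F2_outcross, against 955, 1449, 727 and 1235 in WT. F2_outcross replicates 2 to 4 lay above all WT libraries, while F2_outcross replicate 1 lay within the WT range. The means were 2443 ± 861 in F2_outcross and 1091 ± 316 in WT (SD, n = 4 each). The log2 fold change of 1.12 ± 0.28, or 2.18-fold with an interval of 1.44 to 3.30, narrowly missed the threshold (adjusted p = 0.0522 in limma). It passed in 2 of 16 other settings, without F2_outcross replicate 1 (log2 1.42, adjusted p = 0.0110 in limma) and without WT replicate 2 (log2 1.28, adjusted p = 0.0287 in limma).

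The G0s2 to Pnpla2 ratio was 0.690, 1.31, 1.83 and 1.71 in F2_outcross, against 0.635, 0.724, 0.487 and 0.992 in WT. In F2_outcross replicates 2 to 4 the inhibitor had more reads than the lipase, and in each WT library and in F2_outcross replicate 1 it had fewer. These reads are not corrected for length, and G0s2 has 871 exonic bases against 3020 for Pnpla2. Per kilobase of exon, G0s2 lay above Pnpla2 in every library of both groups. The difference of 1.89-fold did not pass (exact permutation p = 0.0857, adjusted 0.0857 over the 4 ratios).

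**Figure D4:**
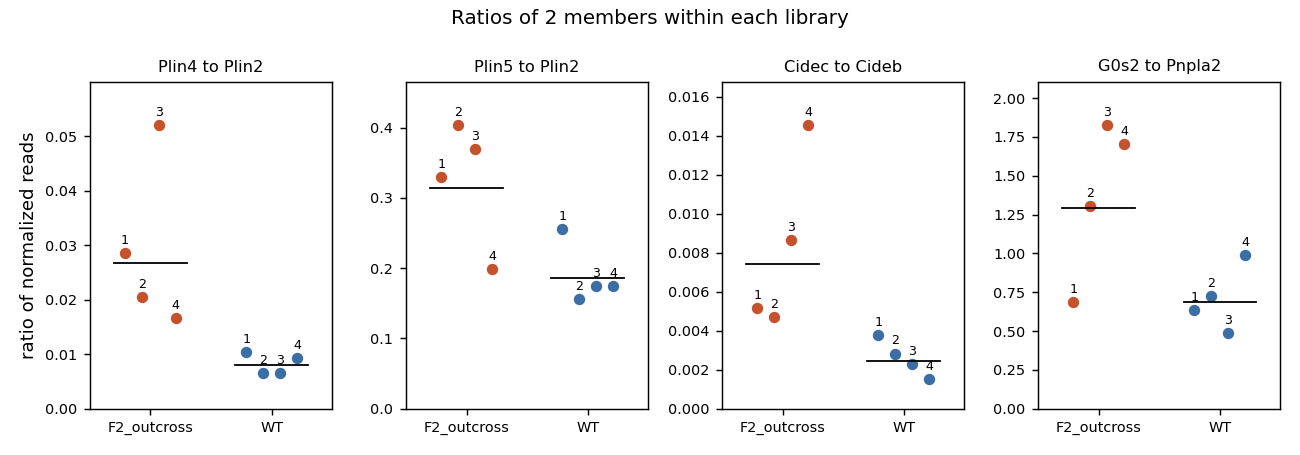
The 4 within-library ratios of normalized reads (vertical axes, linear from 0), 1 point per library with its replicate number, F2_outcross left of WT; lines are the geometric means of each group (n = 4). All F2_outcross points of the Plin4 to Plin2 and Cidec to Cideb ratios lie above the WT points, while the Plin5 to Plin2 and G0s2 to Pnpla2 ratios overlap.

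On the scale of normalized reads per kilobase of exon, the order of levels in F2_outcross was Cideb (4514), G0s2 (2805), Plin2 (2202), Plin5 (1084), Pnpla2 (593), Fitm2 (362), Plin3 (282), Plin4 (33.0) and Cidec (30.6). In WT it was Cideb (4550), Plin2 (2002), G0s2 (1253), Plin5 (633), Pnpla2 (517), Plin3 (326), Fitm2 (244), Plin4 (9.76) and Cidec (9.58). G0s2 and Plin2 stood in the opposite order in the 2 groups, as did Fitm2 and Plin3. G0s2 and Plin2 overlapped over libraries within each group, as did Plin4 and Cidec. In F2_outcross, Plin2 overlapped with Cideb too, through F2_outcross replicate 4. Plin5 overlapped with Plin2 in F2_outcross and with G0s2 and Pnpla2 in WT. Fitm2 and Plin3 overlapped in F2_outcross but not in WT.

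No other gene near Plin4 passed the test. Of 29 tested genes whose lower coordinate lies within 500 kb of that of Plin4, Plin4 was the 1 that passed. The 28 others had log2 fold changes between -1.63 (Uhrf1, a DNA methylation cofactor, adjusted p = 0.294 in limma) and 0.77 (Plin5), with a median of -0.02. The Uhrf1 value, with an SE of 0.85, depends on F2_outcross replicate 4, which had 1 whole read. The other F2_outcross libraries had 38, 25 and 85, and WT had 54, 38, 73 and 112. In Yju2, Stap2, Fem1a and Ticam1 each F2_outcross value lay above each WT value, as in 6.50% of all tested genes. Their log2 fold changes were 0.16, 0.37, 0.38 and 0.37 (adjusted p = 0.531, 0.0724, 0.0622 and 0.0814 in limma, in that order). The remaining neighbours overlapped between the groups. On the other side from Plin5, the nearest tested gene was Hdgfl2, which shares 17 exonic bases with Plin4 on the opposite strand. Its log2 fold change was -0.04, with an interval of -0.30 to 0.22 (adjusted p = 0.881 in limma).

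**Figure D5:**
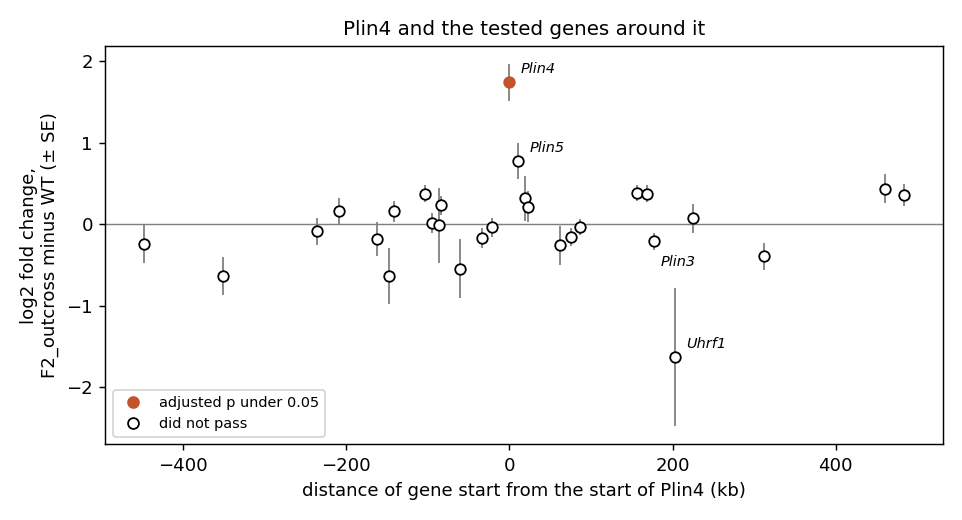
Log2 fold change (F2_outcross minus WT, with SE) of the 29 tested genes that start within 500 kb of Plin4, by distance in kb from its start. Start here means the lower coordinate of a gene, whatever its strand. The filled point is Plin4 at 1.74, and the open points, which did not pass, lie between -1.63 (Uhrf1) and 0.77 (Plin5).

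Genes were also ranked by how closely their values followed Plin4 over the 8 libraries, as the root mean square difference in log2 level after each gene was centred on its WT mean. The 5 closest were Cyp7a1 (0.335), the enzyme that starts bile acid synthesis from cholesterol, H2-T22 (0.350), a nonclassical class I histocompatibility gene, Slc16a5 (0.354), a monocarboxylate transporter, Zfp516 (0.463), a zinc finger gene, and Pkhd1l1 (0.466). Cyp7a1 had 9455, 8211, 14886 and 7092 normalized reads in F2_outcross, against 4314, 3168, 1795 and 2966 in WT. Like Plin4, it was lowest in WT replicate 3. Cidec came 6th in this ranking (0.468), G0s2 22nd and Plin5 126th, with Plin2 at 6952nd and Plin3 at 9554th. The ranking picks genes that differ between the groups as Plin4 does, so it is a description and was not tested.

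None of the other droplet, lipolysis and regulator genes listed passed the test. Of 13 further droplet genes 12 were tested, with 7 positive and 5 negative log2 fold changes and a median of 0.00. Pnpla3, a droplet lipid remodelling enzyme, had 271, 938, 512 and 213 normalized reads in F2_outcross, against 157, 148, 196 and 186 in WT, without overlap (log2 1.26 ± 0.36, adjusted p = 0.0820 in limma). Fitm1, the muscle relative of Fitm2, stood at a log2 fold change of -0.57 (adjusted p = 0.251 in limma).

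Among 10 other lipolysis genes, 8 had positive and 2 negative log2 fold changes, with a median of 0.15. Hormone-sensitive lipase, Lipe, had 753, 719, 651 and 668 normalized reads in F2_outcross, against 414, 632, 496 and 563 in WT. Its groups did not overlap, yet its log2 fold change of 0.42 did not pass (adjusted p = 0.101 in limma). The carboxylesterase Ces1d, which acts on stored triglyceride, stood at a log2 fold change of 0.34 (adjusted p = 0.173 in limma). Its groups did not overlap either, with a lowest F2_outcross value of 21597 and a highest WT value of 21145.

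Fasting and PPAR alpha target genes, among which Plin2 and Plin5 are usually counted, gave 7 positive and 7 negative log2 fold changes over 14 genes, with a median of 0.01. Ppara itself, the fasting-response receptor, had 0.46 (adjusted p = 0.164 in limma) and the pantetheinase Vnn1 -1.16 (adjusted p = 0.333 in limma). Of 9 fat storage regulators, 5 had positive and 4 negative log2 fold changes, with a median of 0.26. Cd36, a fatty acid uptake receptor, had 742, 542, 577 and 800 normalized reads in F2_outcross, against 1297, 907, 878 and 928 in WT. Each F2_outcross value lay under each WT value, while the log2 fold change of -0.59 did not pass (adjusted p = 0.0676 in limma). The receptor gene Ppard had 0.52, with each F2_outcross value above each WT value (adjusted p = 0.0845 in limma).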

How the data were processed

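Total RNA had been extracted from liver with a lipid tissue kit and made into directional libraries, per the labels' protocols. The tools named in the submitters' processing notes are cutadapt, HISAT2 and DESeq2, with the build GRCm38 and no versions. Which program counted reads, and with what annotation and strand setting, is not given in the sources used here. The authors deposited 1 table of log2 values, per the file headers by gene symbol and library. The lowest deposited value, -3.32, is log2 of 0.1, and 2 to the power of each value, less 0.1, was a whole multiple of 1 step per library, to within 0.001 reads, for 100% of values. Values were therefore read as log2(size-factor-normalized reads + 0.1), and the step gave whole reads. Of 25069 lines, 395 had no symbol and were left out. They took 1.22% of reads in WT replicate 2 and 0.611% to 0.770% in the other libraries. Read floors cover counting error only.

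Levels were analysed as log2(normalized reads + 1), which understates fold changes of low genes, for genes that reached 10 normalized reads in 4 or more of the 8 libraries. limma 3.58.1 in R 4.3.3 was used (eBayes with trend, group as the only term, two-sided, Benjamini-Hochberg over 14390 genes, threshold 0.05). The code was tested on simulated data. Within-library ratios were compared by exact permutation, two-sided, adjusted over 4 ratios. Exonic lengths and positions are from GENCODE M21 and promoter windows from RefSeq (GRCm38.p6). The search of promoter windows covered 9 members, and Cidea was left out of it. The members and lists were chosen with earlier results of these data known, and the TATAA search after the windows had been seen.

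All members are named; of each other list, the genes past the threshold and the 2 with the smallest p; of the neighbours of Plin4, the nearest on each side and the members; and the 5 genes most like Plin4, predicted models left out. The result of 1 gene that this rule selects is not reported here. Uhrf1 was named after its values were seen. Alternatives were pseudocounts of 0.1 and 5, no filter, a mean of at least 50, upper quartile and quantile scaling, limma voom on recovered reads, robust moderation, and leaving out each library in turn.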

Additional observations from a re-analysis of the deposited data

Results flagged for a closer look

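In F2_outcross replicate 3, the summed level of the 6 adipocyte markers that did not pass the filter was 197.7 normalized reads, against 29.0, 2.88 and 0.975 in the other F2_outcross libraries and 0.780 to 9.09 in WT. It lay farther from the rest of its group than a test for a single outlying value among 4 allows. The sum of all 8 adipocyte markers was 465 there, against 139 to 207 in the other F2_outcross libraries and 128 to 179 in WT. That sum was not marked by the same test. Plin4 was 230 in that library and 143 to 235 in the other F2_outcross libraries.

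The summed level of 6 muscle markers was 2.34 normalized reads in WT replicate 1 and 0 in the other WT libraries, so that library was also marked as far from its group, on a level near the floor of 3 reads. In all 32 groups of 4 values were examined this way and 2 stood out. By chance about 1 group in 20 would.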

How the results depend on the processing

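Plin4 kept its direction and its call in each of 16 other settings, with a log2 fold change of 1.58 to 1.86. Plin5 and Pnpla2 stayed positive and Plin3 negative, without passing, in 16 of 16, and Cidec in 15 of 15; at a mean of at least 50 normalized reads Cidec had no value. The 4 ratio differences stayed positive with pseudocount 5 and with each library left out. Their tests allow no p under 0.0286 before adjustment over 4 ratios. A ratio could therefore pass only where most of the 4 reached that p. None passed in any of these settings, which says little of stability. The number of genes called was 383 and ranged between 111 (without F2_outcross replicate 2) and 1073 (without WT replicate 2) over the leave-outs. It fell to 142 without F2_outcross replicate 1, 131 without WT replicate 1, 120 without WT replicate 3 and 131 without WT replicate 4, and the cause was not tested. The share of calls that were higher in F2_outcross was 60.1%, and over the leave-outs 46.3% (without WT replicate 2) to 74.0% (without WT replicate 4). Among the members, 1 was called, and 1 to 3 over the leave-outs: Plin4 alone, with G0s2 added without F2_outcross replicate 1, and with G0s2 and Fitm2 added without WT replicate 2. Values near 0 changed sign. Plin2 was -0.029 under quantile normalization and -0.32 to 0.24 over the leave-outs, and Cideb was -0.080 to 0.059. No paired analysis was possible because the labels give no replicate number that the groups share. Depth limits Cidea, with 0 reads in every library, and Cidec, which rests on 12 to 32 whole reads in WT.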

Other observations

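Several fasting-response genes varied widely within the F2_outcross group. The 3 given here were named after their values were seen. Cyp4a14, a fatty acid hydroxylase, had 389, 1279, 13.9 and 3716 normalized reads in F2_outcross, against 706, 3955, 2689 and 963 in WT (log2 fold change -2.01 ± 1.28, adjusted p = 0.399 in limma). Its relative Cyp4a10 had 3766, 5094, 114 and 13749 in F2_outcross, against 2736, 8615, 5270 and 4226 in WT. The lipase inhibitor Angptl4 had 1372, 1948, 911 and 3755 in F2_outcross, against 1604, 1707, 1151 and 991 in WT. In each of the 3, F2_outcross replicate 3 was the lowest library and F2_outcross replicate 4 the highest of its group, as for Plin2. Within F2_outcross, Fitm2 was also lowest in replicate 3 and highest in replicate 4. Cideb was highest in replicate 4, with replicates 1 and 3 level at 5927. Plin3 and Plin5 were lowest in replicate 3 and highest in replicate 2. Pnpla2 was lowest in replicate 3, with replicates 2 and 4 nearly level at 1935 and 1934. Cidec and G0s2 were lowest in replicate 1 and highest in replicate 4. Plin4 was highest in replicate 4 too, at 235, but lowest in replicate 2, at 143, with 230 in replicate 3. The cause of these orders was not tested.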
